A study of Homo sapiens with 6 samples.

Results

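The genes described here are 10 genes of the circadian clock in SUM1315 cells: BHLHE40, BHLHE41, CLOCK, BMAL1 (listed as ARNTL in the annotation), PER1, PER2, CRY1, CRY2, NR1D1 and RORA. All annotated transcripts of each gene were taken and their RPKM values (read number corrected for the length of the transcript and the depth of the library) were summed, which gave 10 of the 26425 genes with a value and 89 transcripts. SUM1315 is an established human breast cancer line that the labels call triple negative and wild type. All 6 RNA-seq libraries came from cells grown in DMEM-F12 medium with serum, insulin and EGF; 3 libraries were from cells in normoxia (21% O2) and 3 from cells kept for 24 h in hypoxia (1% O2) in a sealed chamber. The labels give neither a clock time of harvest nor a step that would synchronise the cells, nor whether the 3 replicates of a group were grown apart. The p-values below therefore speak only of the scatter among these 6 libraries, part or all of which could be technical. The series asked how hypoxia acts on ribosome production, and the clock genes are read here from the same libraries.

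The circadian clock is a loop of transcription factors that lets nearly every cell keep time. CLOCK and BMAL1 are basic helix-loop-helix (bHLH) PAS proteins that bind together to the E-box CACGTG and switch on the PER and CRY genes, whose proteins then return to the nucleus and block CLOCK and BMAL1. A second loop is made of the nuclear receptors REV-ERB alpha (gene NR1D1), which represses BMAL1, and ROR alpha (gene RORA), which activates it from the same kind of DNA element. BHLHE40 and BHLHE41, also called DEC1 and DEC2, are bHLH-Orange repressors that compete for the E-box, and both are known as targets of the hypoxia-inducible factors (HIF), which bind the core ACGTG. HIF-1 alpha is itself a bHLH-PAS protein, so the clock and the oxygen response share a protein family and a DNA core.

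Promoter windows from RefSeq (GRCh38.p14; 250 bases before to 50 bases after each annotated start, 300 bases in all) were found for all 10 genes, 13 windows in total, and were searched on both strands for the E-box CACGTG, the HIF core ACGTG and its variant GCGTG, and the nuclear receptor half-site AGGTCA. An E-box holds the HIF core on both strands and is also counted under it. Positions count the RefSeq start as 0. These windows hold further matches that are not printed, among them ACGTG at -174 and -149 in BHLHE40 and at 38 in NR1D1. Below is 1 site for each of the 3 windows with CACGTG and of the 2 other genes called changed. The motif is in capitals, read 5′ to 3′ on the gene's strand.
BHLHE40 (chr3:4979187-4979209, + strand): tccaaCACGTGagactcatgtga
BHLHE41 (chr12:26125068-26125097, - strand): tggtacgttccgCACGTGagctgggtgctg
PER1 (chr17:8152560-8152589, - strand): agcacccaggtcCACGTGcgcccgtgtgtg
CRY1 (chr12:107093621-107093649, - strand): cacacttcagaaACGTGaggtgccggtgg
NR1D1 (chr17:40100740-40100768, - strand): cgcaagagctcaACGTGccggctgttgga

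The E-box CACGTG lay at position -245 in the BHLHE40 window, at -48 in BHLHE41 and at -173 in PER1. These 3 of 13 windows compare with 7.26% of all 35116 RefSeq windows of the same length. The core ACGTG was in 9 of the 13 windows, those of 8 genes, against 21.4% of all windows; the windows of BMAL1 and RORA did not hold it. GCGTG was in 5 of the 13 windows against 36.5% of all windows, and AGGTCA, the half-site bound by REV-ERB and ROR proteins, was in 4 windows of 3 genes (BMAL1, PER1 and CRY2) against 13.8%. Genes that were called changed and genes that were not both had ACGTG. A match is only a run of letters, and several windows are set off from the start of the transcript with the most RPKM. The RefSeq starts of BHLHE40, CRY1, NR1D1 and BHLHE41 lie 321, 280, 136 and 90 bases inside that transcript, so the sites printed for BHLHE40, CRY1 and BHLHE41 are within it. RORA's RefSeq start is 34989 bases away, and CLOCK, BMAL1 and CRY2 each have 1 of their windows 977, 1190 and 357 bases away.

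Of the 10 genes, 3 rose in hypoxia (BHLHE40, BHLHE41 and NR1D1), 1 fell (CRY1), 4 were tested and not called (CLOCK, BMAL1, PER1 and CRY2), and 2 were too low to be tested (PER2 and RORA). The test was limma on log2(RPKM + 1) with Benjamini-Hochberg adjustment over all 11889 genes above 1 RPKM in at least 3 libraries, with a threshold of 0.05. The same fit called 36.8% of all tested genes changed, 12.4% raised and 24.4% lowered, and 4 called of 8 tested clock genes is to be read against those shares. The libraries of the groups did not overlap for 8 of the 10 genes, 5 higher and 3 lower in hypoxia. Among the 8 tested they did not overlap for 6, where 51.9% of all tested genes did not overlap in either direction. BHLHE41 passed the filter only through its hypoxic libraries, so that it differed was partly fixed by the filter. Fold changes on the log2(RPKM + 1) scale understate the change of weakly expressed genes, and the RPKM ratio is given beside them where this matters.

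**Figure D1:**
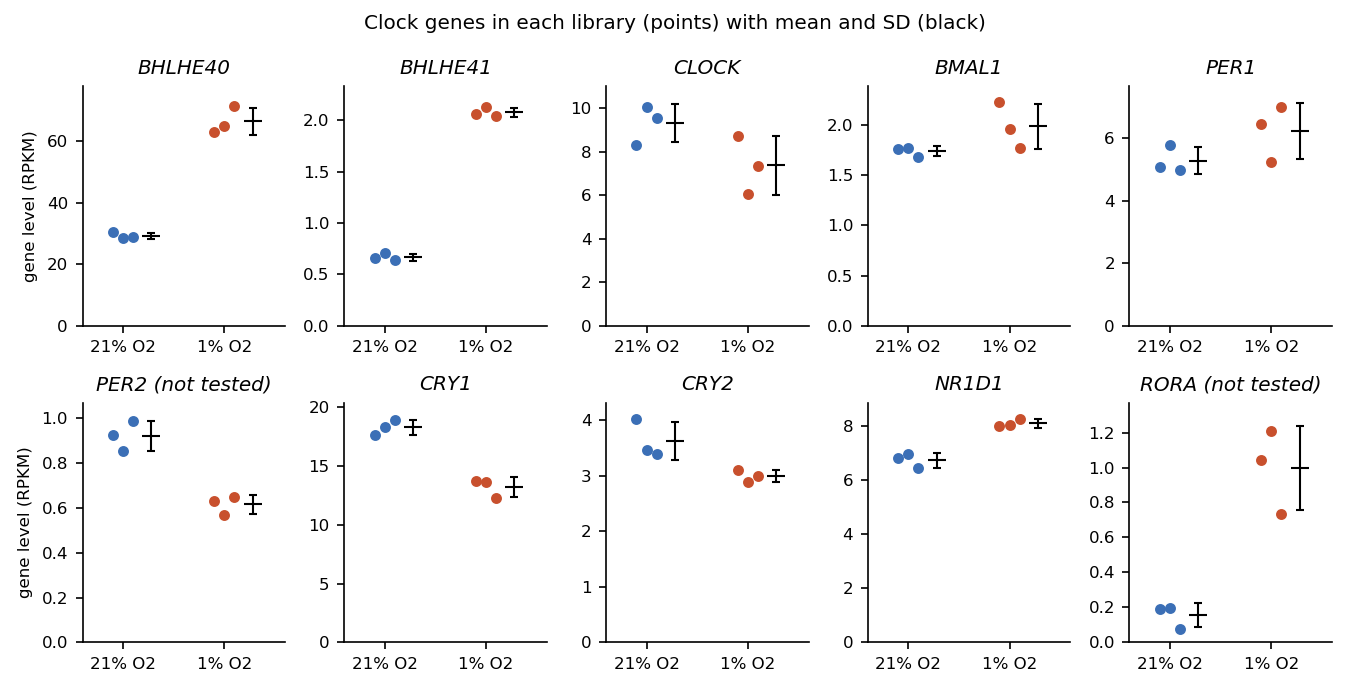
Level of each of the 10 clock genes in RPKM (vertical axes, each from 0) in the 3 libraries at 21% O2 (blue) and the 3 at 1% O2 (red), with the mean and SD in black. BHLHE40, BHLHE41 and RORA lie far apart between the groups, CRY1 and PER2 are lower in every hypoxic library, and CLOCK and PER1 overlap.

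The libraries were alike in depth and followed their labels. Depth, read from the step between low RPKM values, was 50.27 to 50.67 M reads in normoxia and 43.93 to 50.49 M in hypoxia, the lowest being hypoxia replicate 3. Across genes, any pair of normoxic replicates had an r of 0.997 to 0.998 and any hypoxic pair one of 0.993 to 0.995. All 8 tested genes of a list of well-known hypoxia targets rose, with a median log2 fold change of 1.89, the glucose transporter SLC2A1 from 5.49 to 46.9 RPKM. Of 10 epithelial markers, 8 were under 0.1 RPKM in every library, EPCAM, CDH1 and KRT8 among them, and KRT5 reached 0.110. What these levels say of the origin of the line was not tested. GATA3, a luminal mammary marker, was present at 4.93 RPKM in normoxia and 3.77 in hypoxia (limma, adjusted p = 0.0436, lowered). It was the only epithelial marker tested, and its call was lost with median-of-ratios scaling, upper-quartile scaling and no filter. Leaving out any 1 normoxic library, or hypoxia replicate 1 or 2, also lost the call. VIM, 1 of 4 mesenchymal markers, was at 4840 RPKM in normoxia and 6742 in hypoxia. All 4 were tested, 1 rose and 0 fell. Of 6 fibroblast markers, 3 were tested, 2 rose and 1 fell. These counts are to be read against the 12.4% of all tested genes that rose and the 24.4% that fell. The 6 fibroblast markers summed to 464 to 512 RPKM in normoxia and 635 to 699 in hypoxia. The receptor gene ERBB2 was at 21.6 and 22.1 RPKM, ESR1 at 0.072 and 0.101. Markers of endothelial cells summed to at most 0.166 RPKM in any library and the leukocyte marker PTPRC was at 0.0028 RPKM in normoxia and 0 in hypoxia. CD68, a macrophage marker that many other cells also make, rose from 46.7 to 77.2 RPKM (log2 fold change 0.71). The part of CD68 in the results below was not tested. Of 5 leukocyte markers, 3 were under 0.1 RPKM in every library and only CD68 was tested. With no filter, where 4.05% of all genes rose, 2 of the 5 rose.

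BHLHE40 was the most abundant of the 10 genes and rose to 2.27 times its normoxic mean; BHLHE41 and RORA had larger ratios from lower levels. The gene (ENSG00000134107, chromosome 3, 4979116 to 4985323, plus strand) stood at 30.5, 28.5 and 29.04 RPKM in the normoxic libraries and at 63.0, 65.0 and 71.4 in the hypoxic ones. Every hypoxic library was more than 30 RPKM above every normoxic one, and the means were 29.3 ± 1.02 and 66.5 ± 4.41 (SD, n = 3 each). The log2 fold change was 1.15 (SE 0.06; limma, adjusted p = 4.11e-07), the 76th largest increase of the 11889 tested genes. About 4872 to 5272 reads in normoxia and 10612 to 10979 in hypoxia lay behind these values. Nearly all of it was 1 transcript, BHLHE40-201, with 95.9% of the gene's RPKM in normoxia and 96.7% in hypoxia.

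BHLHE41, the paralog of BHLHE40, was low and rose by more in proportion. Its levels (ENSG00000123095, chromosome 12, 26120026 to 26125127, minus strand) were 0.656, 0.704 and 0.641 RPKM in normoxia and 2.06, 2.13 and 2.04 in hypoxia. The 3 values within each group were almost the same and the groups were far apart, with means of 0.667 ± 0.033 and 2.08 ± 0.046 (SD, n = 3 each) and a ratio of 3.11. The log2 fold change was 0.88 (SE 0.09; limma, adjusted p = 4.28e-05), from 124 to 137 reads in normoxia and 310 to 403 in hypoxia. BHLHE41 ranked 140th among the increases. Both p-value and rank carry the limit that it passed the filter only through its hypoxic libraries. The fit with no filter, which called 4.05% of 26425 genes raised, gave an adjusted p of 0.00373 (limma). In normoxia BHLHE41 was below PER2 in level, and in hypoxia it was above it and overlapped with BMAL1.

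Both DEC genes were compared within each library to ask whether they moved by different amounts. BHLHE40 was 46.5, 40.5 and 45.3 times as high as BHLHE41 in RPKM in normoxia and 30.5, 30.6 and 35.0 times in hypoxia. The ratio was therefore lower in each hypoxic library than in any normoxic one. On the log2(RPKM + 1) scale the difference between the paralogs went the other way, from 4.19 ± 0.07 to 4.45 ± 0.11, a change of 0.27 (exact permutation test, two-sided, p = 0.1, adjusted p = 0.15 over 3 pairs). With a pseudocount of 0.1 in place of 1 the change was -0.33, so the sign depends on how the low BHLHE41 values are weighted. With 3 libraries against 3 this test cannot go below 0.1.

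The genes that followed the DEC genes most closely over the 6 libraries were named by the Pearson correlation of log2(RPKM + 1). For BHLHE40 these were HLA-B (r = 0.9995), FAM210A (0.9990) and DPYSL4 (0.9990), and for BHLHE41 they were BNIP3L (0.9993), ERO1A (0.9990) and DDIT4 (0.9989). The 6 libraries fall into the 2 oxygen groups, so these values mostly describe that split: 131 tested genes had r over 0.99 with BHLHE40 and 93 with BHLHE41.

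The activators CLOCK and BMAL1 were not called. CLOCK (ENSG00000134852, chromosome 4, 55427903 to 55547138, minus strand) was at 8.32, 10.0 and 9.54 RPKM in normoxia and 8.70, 6.04 and 7.34 in hypoxia. The groups overlapped because hypoxia replicate 1 was above normoxia replicate 1. The means were 9.30 ± 0.88 and 7.36 ± 1.33 (SD, n = 3 each), with a log2 fold change of -0.31 (SE 0.11; limma, adjusted p = 0.0535). That value is close to the threshold, and it passed without hypoxia replicate 1 (-0.42, limma adjusted p = 0.0176) and without normoxia replicate 1 (-0.38, limma adjusted p = 0.0490). It did not pass without normoxia replicate 2 or 3 (limma, adjusted p = 0.169 and 0.142). Nor did it without hypoxia replicate 2 or 3 (limma, adjusted p = 0.156 and 0.0908). Among all alternatives, CLOCK passed in 5 and did not in 9. BMAL1 (ENSG00000133794, chromosome 11, 13276652 to 13387266, plus strand), the partner that CLOCK needs, was much lower, at 1.76, 1.77 and 1.68 RPKM in normoxia and 2.22, 1.96 and 1.77 in hypoxia. All 3 hypoxic values were above the normoxic ones, but the lowest of them only just. The log2 fold change of BMAL1 was 0.12, little more than its SE of 0.09 (limma, adjusted p = 0.312).

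Of the repressors, CRY1 fell. CRY1 (ENSG00000008405, chromosome 12, 106991364 to 107093829, minus strand) encodes the cryptochrome that blocks CLOCK and BMAL1 most strongly. Its levels were 17.6, 18.3 and 18.9 RPKM in normoxia and 13.7, 13.7 and 12.2 in hypoxia, so the groups were well apart. The means were 18.3 ± 0.63 and 13.2 ± 0.83 (SD, n = 3 each), a ratio of 0.723, and the log2 fold change was -0.44 (SE 0.07; limma, adjusted p = 0.00112). It was the 402nd largest decrease of the tested genes, and the second most abundant of the 10 clock genes in both groups.

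CRY2 and the PER genes were not called. CRY2 (ENSG00000121671, chromosome 11, 45847118 to 45883248, plus strand), the second cryptochrome, was at 4.02, 3.46 and 3.4 RPKM in normoxia and 3.11, 2.88 and 2.99 in hypoxia. The hypoxic values were all below the normoxic ones, and the log2 fold change was -0.21 (SE 0.09; limma, adjusted p = 0.0808). PER1 (ENSG00000179094, chromosome 17, 8140472 to 8156506, minus strand), the period gene that responds fastest to outside signals, was at 5.08, 5.78 and 4.99 RPKM in normoxia and 6.44, 5.25 and 7.0 in hypoxia. Hypoxia replicate 2 lay within the normoxic range, and the log2 fold change was 0.20 (SE 0.10; limma, adjusted p = 0.148). Without that library it was 0.30 (limma, adjusted p = 0.0287). In the 13 other alternatives PER1 did not pass (limma, adjusted p = 0.0685 to 0.372).

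PER2, the other period gene measured here, was below the level needed for the test. PER2 (ENSG00000132326, chromosome 2, 238244038 to 238290102, minus strand) was at 0.926, 0.851 and 0.984 RPKM in normoxia and at 0.628, 0.568 and 0.649 in hypoxia. The hypoxic libraries were all lower, with means of 0.920 ± 0.067 and 0.615 ± 0.042 (SD, n = 3 each) and a ratio of 0.668, from 240 to 276 reads and 179 to 202 reads. An exact permutation test on the log2(RPKM + 1) values gave p = 0.1, the smallest that 3 against 3 allows. In the fit with no filter, which called 9.22% of 26425 genes (4.05% raised and 5.17% lowered), the log2 fold change of PER2 was -0.25 (limma, adjusted p = 0.0405).

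Within the pairs, PER1 was 5.49, 6.80 and 5.07 times as high as PER2 in RPKM in normoxia and 10.3, 9.24 and 10.8 times in hypoxia, without overlap. On the log2(RPKM + 1) scale the difference between PER1 and PER2 grew by 0.45, from 1.71 ± 0.15 to 2.16 ± 0.15 (exact permutation test, two-sided, p = 0.1, adjusted p = 0.15). In normoxia replicate 3, PER2-202, a noncoding transcript, gave 0.292 of the 0.984 RPKM of PER2. With protein-coding transcripts only, the change was 0.32 (exact permutation test, adjusted p = 0.1). CRY1 was 4.38, 5.29 and 5.55 times as high as CRY2 in normoxia and 4.41, 4.73 and 4.09 times in hypoxia. These ratios overlapped between the groups, and the change of -0.23 on the log2 scale gave p = 0.2 in the same exact permutation test (adjusted p = 0.2).

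**Figure D2:**
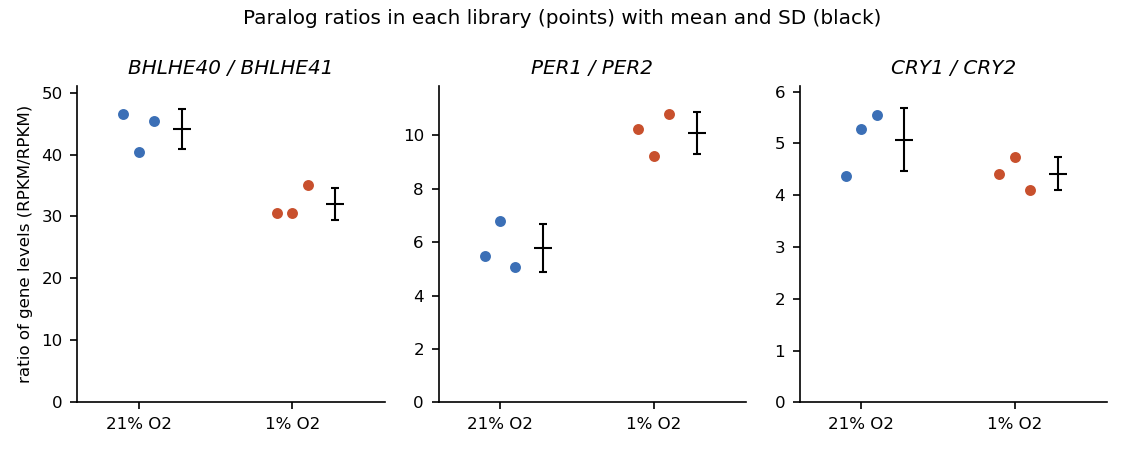
Ratio of the RPKM of 2 paralogs in each library (points; blue 21% O2, red 1% O2) with the mean and SD in black; each axis starts at 0. The ratio of PER1 to PER2 is above 9 in every hypoxic library and below 7 in every normoxic one, the ratio of BHLHE40 to BHLHE41 is lower in hypoxia, and that of CRY1 to CRY2 overlaps.

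In the second loop, NR1D1 rose by a small amount. NR1D1 (ENSG00000126368, chromosome 17, 40092787 to 40100725, minus strand), which encodes the heme-binding repressor REV-ERB alpha, was at 6.82, 6.97 and 6.44 RPKM in normoxia and 7.99, 8.03 and 8.28 in hypoxia. The groups were apart by about 1 RPKM, with means of 6.74 ± 0.27 and 8.10 ± 0.16 (SD, n = 3 each), a ratio of 1.20. The log2 fold change was 0.23 (SE 0.07; limma, adjusted p = 0.0284). The call was lost without normoxia replicate 1, 2 or 3 (limma, adjusted p = 0.0834, 0.0694 and 0.118) and with libraries rescaled to equal RPKM sums (limma, adjusted p = 0.0848), each time with the same direction. At its 3′ end NR1D1 shares 263 exon bases, 9.49% of its exon length, with THRA on the opposite strand; the libraries do not mark strand, so reads there cannot be assigned, and THRA was at 4.62 and 5.21 RPKM (log2 fold change 0.14; limma, adjusted p = 0.219).

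RORA had the largest ratio of the 10 genes and the lowest normoxic level. RORA (ENSG00000069667, chromosome 15, 60488284 to 61229319, minus strand), the receptor that opposes REV-ERB alpha, was at 0.194, 0.198 and 0.0794 RPKM in normoxia and 1.04, 1.21 and 0.734 in hypoxia. Every hypoxic library was at least 3 times above every normoxic one, and the means were 0.157 ± 0.067 and 0.995 ± 0.241 (SD, n = 3 each), a ratio of 6.33. These values rest on 11.0 to 29.9 reads in normoxia and 96.0 to 173 in hypoxia, and counting error is part of their spread. RORA reached 1 RPKM in only some libraries and was not tested in the main analysis. The exact permutation test gave p = 0.1, the smallest possible, and the fit with no filter gave a log2 fold change of 0.78 (limma, adjusted p = 0.0176).

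The RORA signal came from several transcripts. RORA-204, a protein-coding transcript of 1701 bases that starts inside the gene, was at 0.124, 0.0345 and 0.0550 RPKM in normoxia and 0.732, 0.720 and 0.519 in hypoxia. It made up 45.3% of the gene's RPKM in normoxia and 66.0% in hypoxia. RORA-203, the full-length transcript of 10844 bases whose start lies at the far end of the gene, rested on 8.41, 0 and 2.28 estimated reads in normoxia and on 93.8, 58.3 and 51.9 in hypoxia. Both were higher in every hypoxic library, whereas RORA-207, a retained intron form inside the gene, was at 0.043 RPKM in normoxia and 0.047 in hypoxia. RORA-210, of 577 bases, was near 0 in normoxia and at 0.0684, 0.211 and 0.0885 RPKM in hypoxia, which is 1.99, 6.0 and 2.24 estimated reads. RORA-206, a retained intron form, made up 23.0% of the gene's RPKM in normoxia and was 0 in hypoxia. All of it came from normoxia replicate 2, at 0.108 of the 0.198 RPKM of RORA there, which is 2.99 estimated reads. The antisense gene RORA-AS1, which shares 564 exon bases with RORA (3.41%), was at 0.499 and 0.507 RPKM.

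**Figure D3:**
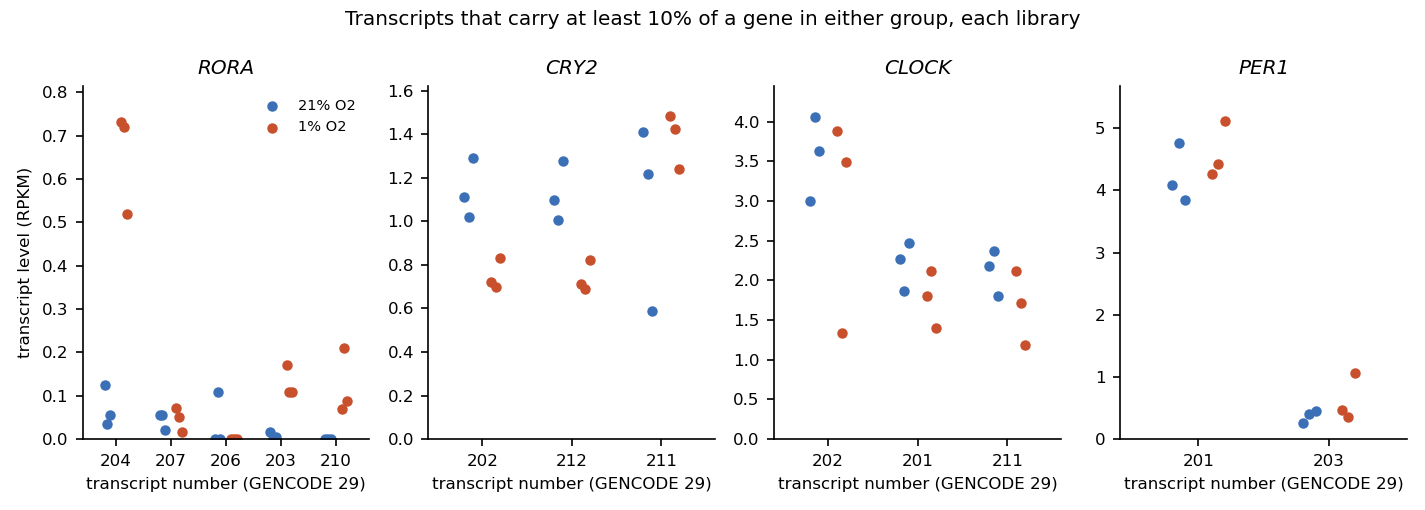
RPKM of transcripts that carry at least 10% of their gene in either group, for RORA, CRY2, CLOCK and PER1, in each library (blue 21% O2, red 1% O2; every axis starts at 0). RORA-204 and RORA-203 are higher in all hypoxic libraries, CRY2-202 and CRY2-212 are lower in all of them, and the CLOCK and PER1 transcripts overlap.

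The table is per transcript, and 12 of the 89 transcripts of the 10 genes were above the filter. Of these, 2 rose and 1 fell, where the fit over 26790 transcripts called 6.72% changed, 3.50% raised and 3.22% lowered. BHLHE41-201, like its gene, passed the filter only through the hypoxic libraries. BHLHE40-201 went from 28.1 to 64.3 RPKM (log2 fold change 1.16; limma, adjusted p = 1.93e-04), BHLHE41-201 from 0.667 to 2.00 (0.85; limma, adjusted p = 0.00837) and CRY1-201 from 17.6 to 12.7 (-0.44; limma, adjusted p = 0.0231). CRY1-201 carried 96.2% of its gene in normoxia and 96.0% in hypoxia. NR1D1 has 1 listed transcript, and its increase did not pass in the transcript fit (limma, adjusted p = 0.119).

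In CRY2 the transcripts did not move alike. CRY2-202 was at 1.14 RPKM in normoxia and 0.751 in hypoxia, and CRY2-212, which differs from it by 1 base in length, at 1.13 and 0.742; neither was called (limma, adjusted p = 0.181 and 0.184). CRY2-211, a shorter transcript of 1936 bases, was at 1.41, 1.22 and 0.586 RPKM in normoxia and 1.48, 1.42 and 1.24 in hypoxia. Its share of the gene's RPKM was 29.5% in normoxia and 46.2% in hypoxia, but normoxia replicate 3 was far below replicates 1 and 2 and the difference was not called (limma, adjusted p = 0.458). Near-identical transcripts share reads, so the split between them is an estimate.

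The 3 main CLOCK transcripts had lower means in hypoxia, each with overlap: CLOCK-202 at 3.56 and 2.90 RPKM, CLOCK-201 at 2.20 and 1.77, and CLOCK-211 at 2.12 and 1.68. PER1-201, with 80.0% of the gene in normoxia and 73.8% in hypoxia, was at 4.23 and 4.6 RPKM (limma, adjusted p = 0.617). PER1 shares 30 exon bases with an annotated gene on the same strand, ENSG00000263620, which was at 8.48 and 10.8 RPKM. PER2-201 carried 86.4% of PER2 in normoxia and 100% in hypoxia, the rest in normoxia being mainly PER2-202 in 1 library. For BMAL1 the RPKM was spread over many transcripts, the highest being ARNTL-205 at 0.582 and 0.652 RPKM, and none of them reached the filter. Other overlaps were small: BHLHE41 shares 162 exon bases (4.10%) with SSPN, which was at 0.070 and 0.148 RPKM, and BHLHE40 shares 4 bases with BHLHE40-AS1, at 0.116 and 0.182. CLOCK shares 76 exon bases with TMEM165, at 33.7 and 32.1 RPKM.

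The order of the 10 genes by level was BHLHE40, CRY1, CLOCK, NR1D1, PER1, CRY2, BMAL1, PER2, BHLHE41 and RORA in normoxia, with no overlap between the libraries of neighbours. In hypoxia it was BHLHE40, CRY1, NR1D1, CLOCK, PER1, CRY2, BHLHE41, BMAL1, RORA and PER2. There NR1D1 overlapped with CLOCK, CLOCK with PER1, and BHLHE41 with BMAL1. RPKM is per length, so these levels can be set beside each other, within the limits of the transcript models.

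Other genes of the core loop are known to act beside the 10. Of 9 listed, 6 were tested, 0 rose and 4 fell, where 12.4% of all tested genes rose and 24.4% fell, with a median log2 fold change of -0.33 against -0.08 for all tested genes; with no filter, where 5.17% of all genes fell, 2 of the list fell, PER3 among them. PER3, the third period gene, fell from 7.06 ± 0.04 to 4.46 ± 0.48 RPKM (SD, n = 3 each; log2 fold change -0.57, SE 0.09; limma, adjusted p = 8.06e-04), with every hypoxic library below every normoxic one. NR1D2 encodes REV-ERB beta and was at 11.3 ± 0.75 RPKM in normoxia and 8.22 ± 1.10 in hypoxia. Its log2 fold change was -0.43 (SE 0.09, limma adjusted p = 0.00604), the opposite direction to its paralog NR1D1. With no filter NR1D2 lost its call (limma, adjusted p = 0.0635), and the difference between NR1D2 and NR1D1 was not tested. The other 2 that fell were TIMELESS and TIPIN, partners at the replication fork, whose part in the mammalian clock is less settled. BMAL2, a paralog of BMAL1, was at 37.5 and 34.4 RPKM and far above BMAL1 in level, and NPAS2, the paralog that can stand in for CLOCK, was at 2.70 and 3.33; neither was called (limma, adjusted p = 0.213 and 0.125).

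The output genes that bind D-boxes are the PAR bZIP genes DBP, TEF and HLF and the related repressor NFIL3, which is not itself of the PAR family. In many tissues they follow the clock closely. Of 4 listed, 3 were tested, 2 rose and 0 fell, against 12.4% and 24.4% of all tested genes. With no filter, where 4.05% of all genes rose, 1 of the list rose and DBP lost its call (limma, adjusted p = 0.0619). NFIL3, the repressor E4BP4, rose from 2.45 ± 0.07 to 4.21 ± 0.65 RPKM (SD, n = 3 each; log2 fold change 0.59, SE 0.10; limma, adjusted p = 0.00156). DBP, the activator at the same sites, rose from 5.12 ± 0.07 to 6.76 ± 0.75 RPKM (log2 fold change 0.34, SE 0.09; limma, adjusted p = 0.0129). TEF, another activator, was at 1.83 and 1.5 RPKM and was not called (limma, adjusted p = 0.160).

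**Figure D4:**
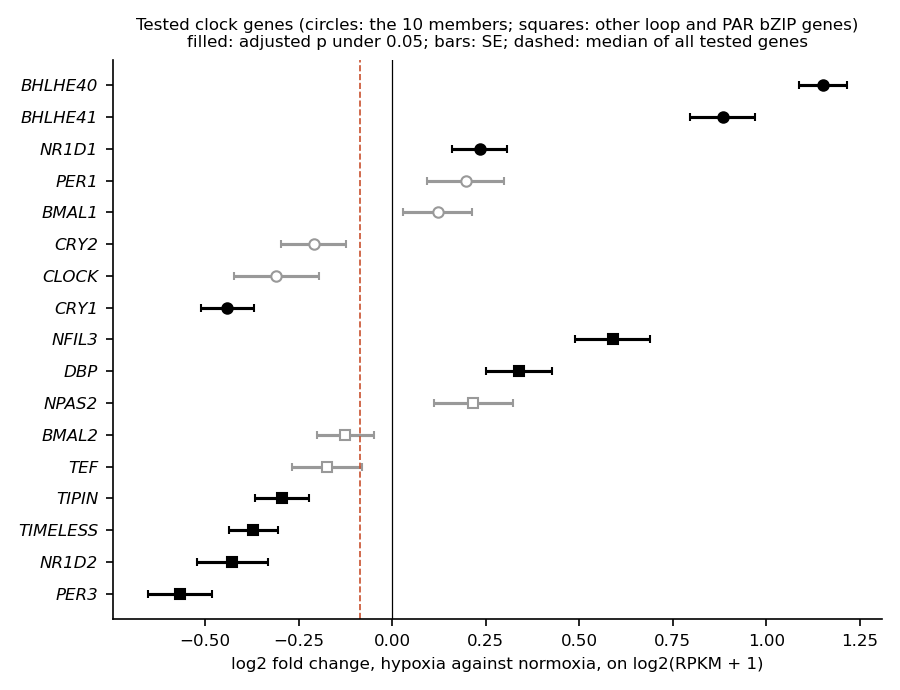
Log2 fold change, hypoxia against normoxia on log2(RPKM + 1), of the tested clock genes, with SE bars. Circles are the 8 tested of the 10 genes, and squares are other loop genes and the PAR bZIP genes with NFIL3. Filled points passed an adjusted p of 0.05 and the dashed line is the median of all tested genes. BHLHE40 (1.15) and BHLHE41 (0.88) lie farthest to the right and PER3 (-0.57) farthest to the left.

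The kinases, ubiquitin ligases and coregulators that act on the clock proteins are general regulators of the cell. Of 15 kinases and phosphatases, all tested, 0 rose and 5 fell (median log2 fold change -0.04), of 16 ubiquitin pathway genes 0 rose and 9 fell (-0.23), and of 16 coregulators 0 rose and 5 fell (-0.17), each to be read against the 24.4% of all tested genes that were lowered. Named by size, these were GSK3B and CSNK1A1, CUL1 and HUWE1, and KMT2A and NCOR1. Median-of-ratios scaling moved the median of all tested genes from -0.08 to -0.01. With it, none of the kinases and coregulators and 1 of the ubiquitin pathway genes fell, so these decreases depend on the scaling. Under the same scaling 2 of the kinases, 1 of the coregulators and none of the ubiquitin pathway genes rose. Without normoxia replicate 1, 2 or 3, the lowered genes numbered 1, 0 and 1 of the kinases, 5, 3 and 2 of the ubiquitin pathway genes and 3, 0 and 1 of the coregulators. HUWE1 kept its call in all 14 alternatives run for it, and the 5 other genes named kept theirs in 8 or 9 of 14. CSNK1D, a kinase of the PER proteins, was at 63.6 and 68.3 RPKM (limma, adjusted p = 0.191) and shares 336 exon bases with SLC16A3 on the opposite strand, which went from 0.638 to 68.1 RPKM.

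Among 12 genes known as clock outputs, 8 were tested, 3 rose and 1 fell, against 12.4% and 24.4% of all tested genes. CDKN1A, the cell cycle inhibitor p21 and a gene that the DEC and REV-ERB proteins are known to act on, rose from 2.27 ± 0.13 to 6.23 ± 0.96 RPKM (SD, n = 3 each; log2 fold change 1.14, SE 0.10; limma, adjusted p = 2.31e-05). KLF10 rose from 25.7 to 30.6 RPKM (0.24; limma, adjusted p = 0.00992), and ALAS1, the first enzyme of heme synthesis, fell from 49.8 to 38.0 (-0.38; limma, adjusted p = 7.63e-04). CDKN1A is also a target of other stress pathways.

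The bHLH-PAS and bHLH-Orange families share domains with the clock proteins. Among 11 bHLH-PAS relatives, 6 were tested, 2 rose and 1 fell, against 12.4% and 24.4% of all tested genes: NPAS1 rose from 1.07 to 2.04 RPKM (0.56; limma, adjusted p = 0.00117), EPAS1, which encodes HIF-2 alpha, from 12.9 to 14.9 (0.19; limma, adjusted p = 0.0412), and HIF1A fell from 26.2 to 21.3 (-0.29; limma, adjusted p = 0.00756). The EPAS1 call was kept in 7 of its 14 alternatives, those of NPAS1 and HIF1A in all run for them. Among 9 bHLH-Orange relatives of the DEC proteins, 4 were tested, 1 rose and 1 fell, which is near the same shares: HES4 rose from 17.4 to 22.0 RPKM (0.32; limma, adjusted p = 0.0138) and HES6 fell from 9.45 to 7.78 (-0.25; limma, adjusted p = 0.0393). HES4 kept its call in 12 of 14 alternatives and HES6 in 7; HES6 lost it with median-of-ratios scaling and without any 1 of the normoxic libraries. The increases of HES4 and NPAS1 were smaller on the log2 scale than those of BHLHE40 and BHLHE41, a difference between genes that was not tested.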

How the data were processed

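Total RNA from 6 libraries of SUM1315 cells (3 normoxia, 3 hypoxia) was sequenced; the library kit, per the labels' protocols, does not record the strand of the RNA. The submitters' processing notes name Trimmomatic, HISAT2, SAMtools, Partek and the builds GRCh38 and hg38; which annotation and strand setting were used for counting is not given in the sources used here. For each of the 6 libraries the authors deposited RPKM values of 165956 Ensembl transcripts; the unit was inferred from the values. Transcript identifiers matched GENCODE 29 (GRCh38) for 140023 (84.4%), and the 25933 others, with 3.43% to 3.67% of the RPKM, were left out. RPKM was summed per gene (26425 genes). Depth was inferred from value steps: 79.9% to 80.9% of low values lay within 0.1 of a whole multiple up to 20. Reads given for a gene are RPKM multiplied back by length and depth, so they are estimates and their error is counting error only. 1 read in 2 kb is worth 0.00987 to 0.0114 RPKM.

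limma 3.58.1 (R 4.3.3) with a mean-variance trend was run on log2(RPKM + 1), for genes, or transcripts, above 1 RPKM in at least 3 libraries, without a block, with Benjamini-Hochberg adjustment at 0.05, and was tested on simulated data. Paralog differences were tested by exact permutation. Named genes were all 10 members, in each other list the 2 raised and 2 lowered genes with the largest log2 fold change among those called, genes that overlap a member, member transcripts with at least 10% of the gene, and the 3 genes most like each DEC gene; TEF, BMAL2, NPAS2, KLF10, TIMELESS and TIPIN were named beyond that rule after their values were seen, and 1 gene that the rule names is not reported here. Markers and hypoxia targets were read as checks. The 10 genes and all lists were chosen with earlier results of these data known. Alternatives were 3 scalings, 2 filters, a pseudocount of 0.1, a replicate block, protein-coding transcripts only and leaving out each library.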

Additional observations from a re-analysis of the deposited data

How the results depend on the processing

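The calls of BHLHE40, BHLHE41 and CRY1 held in every alternative run for them, with log2 fold changes of 1.08 to 1.23, 0.85 to 1.5 and -0.50 to -0.36. In all but the fit with no filter, BHLHE41 entered only through its hypoxic libraries, so those alternatives do not test that limit. Over all members' alternatives, 97 values kept their side of the threshold, 9 passed it newly, 5 lost it and 0 reversed. Among the 9 are PER2 and RORA with no filter, which the main analysis did not test. The 5 lost calls were all of NR1D1. Clock genes lowered numbered 3 with equal sums, where CLOCK (limma, adjusted p = 0.0326) and CRY2 (limma, adjusted p = 0.0413) joined CRY1, 2 with no filter, 2 with a filter of 5 RPKM and 2 with the replicate block; raised genes numbered 2 with the block and 4 with no filter. With the 5 RPKM filter BHLHE41, BMAL1, PER2, CRY2 and RORA could not be tested. Leaving out each library gave 2 to 4 raised and 1 to 2 lowered. Genes of the 8 other lists were 8 raised and 26 lowered; lowered genes numbered 7 with median-of-ratios, 7 with upper-quartile scaling, 7 with no filter, and 9 to 27 with libraries left out (15, 9 and 9 without normoxia replicate 1, 2 or 3). The cause was not tested. Lowered calls were 66.2% of all calls as deposited, 41.2%, 42.9% and 78.2% under the 3 scalings. Member transcripts lowered were 0 with the block and 0 to 1 with libraries left out, 0 without normoxia replicate 1, 2 or 3. The change in BHLHE40 minus BHLHE41 was -0.33 with a pseudocount of 0.1. Deviations of same-numbered libraries correlated at 0.0894, 0.0299 and -0.227, so no shared deviation was seen. These values cannot show whether the replicate numbers pair the samples. With the replicate block, CLOCK passed (limma, adjusted p = 0.0496) and NR1D1 did not (limma, adjusted p = 0.0646), and the other lists had 7 raised and 22 lowered. Depth limits RORA and BHLHE41 in normoxia most.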
